A study of Mus musculus with 6 samples.

Results

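The genes described here are 10 genes of cytotoxic lymphocytes and of their secretory granules, out of 14744 gene symbols measured by RNA sequencing in Tfh cells. They encode 3 granzymes (*Gzmk*, *Gzma* and *Gzmb*), perforin (*Prf1*), granule proteins (*Nkg7*, *Srgn* and *Ctsw*), a chemokine (*Ccl5*), a transcription factor (*Eomes*) and a receptor chain (*Klrd1*). They were picked by name with their normalized counts in the WT and Bach2-cKO libraries already known. Their differences between these groups are therefore selected on the values shown, and are given as a description with no test. Each of the 10 was found once, and all 10 were among the 11296 genes with a normalized count of at least 10 in at least 3 libraries, which entered the fit across all genes.

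Tfh cells are CD4+ T cells of the B cell follicle, where they support germinal center B cells. The study sequenced 3 samples from WT mice and 3 from Bach2-cKO mice (Bach2fl/flCd4-cre) to ask which transcripts change in these cells without Bach2. Each sample held 10000 to 30000 cells from the mesenteric lymph nodes (MLNs), sorted as CD4+, B220-, CD44+, PD-1+ and CXCR5+. All mice were C57BL/6 by their labels (C57BL/6J in the study's methods) and 2 to 3 months old. In the study's general account of its mice the WT animals were littermates with Cd4-Cre, but whether this holds for the WT mice of the RNA sequencing was not given in the sources used here. The *Cd4* promoter drives Cre from a thymic stage shared by most T cells, so the deletion is not limited to Tfh cells. How many mice gave each sample was not given in the sources used here, and the p-values below measure only the spread between these samples.

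The values are normalized read counts, that is, reads per gene divided by a size factor of the library. They summed to 7809702, 7387316 and 8135325 in WT replicates 1, 2 and 3, and to 7456435, 7362290 and 7361229 in replicates 1, 2 and 3 labelled Bach2-cKO. Every value was a whole multiple of a step of its library, within 0.01 of a step. Whole reads recovered from the steps came to 6585742 in WT replicate 2 and 7823717 in WT replicate 3. The replicates labelled Bach2-cKO had 5045131, 10987752 and 7197242 reads, so replicate 2 of that group was the deepest.

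WT replicate 1 stood apart from the other libraries. It had 11648 genes above 0, against 13111 to 13567 elsewhere. Taken as 1 read, its step of 1.01 would give it 7737531 reads, a depth within the range of the others. The rule used here to accept recovered reads takes no step this near 1, so the count tests were run without this library. In this library 247 genes were listed at 0 that had at least 10 normalized counts in each of the other 5 libraries, against 1 to 10 such genes in any other library. *Klrd1*, *Klrc1*, *Klrk1* and *Serpinb1a* were among these 247 genes. Where it was the highest or the lowest of the 6 libraries for a gene, a log2 difference of that gene is given below with and without it.

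The targeted gene was examined as a check of the labels. WT replicates 1, 2 and 3 had 233, 222 and 105 normalized counts of *Bach2*, and those labelled Bach2-cKO had 399, 763 and 591. It was thus higher in every library labelled Bach2-cKO than in every WT library (log2 fold change 1.68, standard error 0.37, limma adjusted p = 0.141). DESeq2 on the recovered reads of 5 libraries called it higher (log2 fold change 1.81), as did limma with library weights (2.36), while edgeR on these reads did not (1.83). This goes against the label as read from whole-gene counts, which include reads on exons outside a deleted part. The second group is therefore named by its label throughout, and every direction below is a direction between labels.

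Tfh identity was checked with markers. *Cd3e* (4534 to 11924 normalized counts), *Cd4* (2407 to 4131), *Cxcr5* (1271 to 2207) and *Pdcd1* (1462 to 2708), which encode a chain of the T cell receptor complex and the CD4, CXCR5 and PD-1 proteins of the gate, were present in all 6 libraries. Of 9 Tfh genes, 0 passed the thresholds in limma, which asked for more than 2-fold and an adjusted p under 0.01. By unadjusted p under 0.05, 5 did, of which *Cd3e* and *Icos* were lower and *Cd4*, *Bcl6* and *Cd44* higher in the libraries labelled Bach2-cKO, where 10.2% of all genes tested were lower and 10.1% higher. On the recovered reads of 5 libraries, DESeq2 called *Cd3e* and *Icos* lower, beside 0.505% of all genes lower. On these reads edgeR called 0 of the 9, with 5 by unadjusted p under 0.05, beside 18.3% of all genes.

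Cytotoxic lymphocytes, chiefly CD8+ T cells and NK cells, carry granules that hold granzymes, which are serine proteases, and perforin, which lets granzymes enter a target cell. The granzymes are kept in the granule on serglycin, a proteoglycan, and granules are released where the cell touches its target. Some CD4+ T cells also transcribe granzymes and the chemokine CCL5, and Bach2, a bZIP factor that binds AP-1-like sites, is known as a repressor of effector genes in T cells.

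*Gzmk* encodes granzyme K, a protease with trypsin-like specificity. WT replicates 1, 2 and 3 had 1073, 1113 and 1159 normalized counts of *Gzmk*, and replicates 1, 2 and 3 labelled Bach2-cKO had 232, 53.6 and 240.4. The 3 WT libraries lay within 1.08-fold of each other, and each was above every library labelled Bach2-cKO, among which replicate 2 was lowest. The group means were 1115 ± 43.3 (SD, n = 3) and 175 ± 106 (SD, n = 3), or 6.36-fold lower with the Bach2-cKO label. On the log2(normalized count + 1) scale the difference was -2.94 (standard error 0.495), or -2.23 without replicate 2 labelled Bach2-cKO and -4.01 with library weights. In bulk libraries, fewer cells that carry a transcript and less of it per cell cannot be told apart, for this gene and for those that follow.

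Genes that most cells use were looked at beside *Gzmk*, after their values were seen. Of 7 such genes, 4 were also lower in every library labelled Bach2-cKO (*Gapdh*, *Tbp*, *Ppia* and *Eef1a1*), beside 12.2% of all genes tested, and *Actb*, *B2m* and *Hprt* overlapped. *Gapdh* was at 33528, 18088 and 24162 normalized counts in WT and at 6673, 8110.2 and 16792 with the Bach2-cKO label. The log2 differences of the 4 genes were -1.34, -1.05, -0.41 and -0.33, and without WT replicate 1 they were -1.11, -0.89, -0.30 and -0.23. With a smooth trend in GC content and transcript length removed, that of *Eef1a1* turned to 0.086 and that of *Ppia* was -0.0018. Those of *Gapdh*, *Tbp* and *Gzmk* were then -1.24, -1.27 and -2.47. The part of these differences between the libraries in the values of the 10 genes was not tested.

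*Gzma* encodes granzyme A, the other trypsin-like granzyme of this set. It was at 107, 656 and 152 normalized counts in WT and at 168, 1589 and 439.8 in the libraries labelled Bach2-cKO. Replicate 2 of each group was the highest of its group, and the groups overlapped. The means were 305 ± 305 (SD, n = 3) and 733 ± 754 (SD, n = 3), so that each SD was as large as its mean, and the log2 difference was 1.15 (standard error 0.81). The difference was 0.63 without WT replicate 1 and 0.30 without replicate 2 labelled Bach2-cKO, and with both left out it was -0.21. It was larger without WT replicate 2 (1.94), without replicate 1 labelled Bach2-cKO (1.92) and with library weights (2.33).

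*Gzmb* encodes granzyme B, which cleaves after aspartate and triggers apoptosis in target cells. Its normalized counts were 2.02, 88.6 and 38.5 in WT and 79.8, 324 and 231 in the libraries labelled Bach2-cKO. WT replicate 1 was far below the rest, and WT replicate 2 lay above replicate 1 labelled Bach2-cKO, so that the groups overlapped. The log2 difference was 3.05 (standard error 1.09). Of the values with 1 library left out, it was lowest without WT replicate 1, at 1.62, and highest without WT replicate 2, at 4.06, and was 3.64 without replicate 1 labelled Bach2-cKO. Of the close relatives of *Gzmb* that could share reads with it, *Gzmc* was at most at 3.37 and *Gzmf* at most at 8.71 normalized counts in any library.

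**Figure D1:**
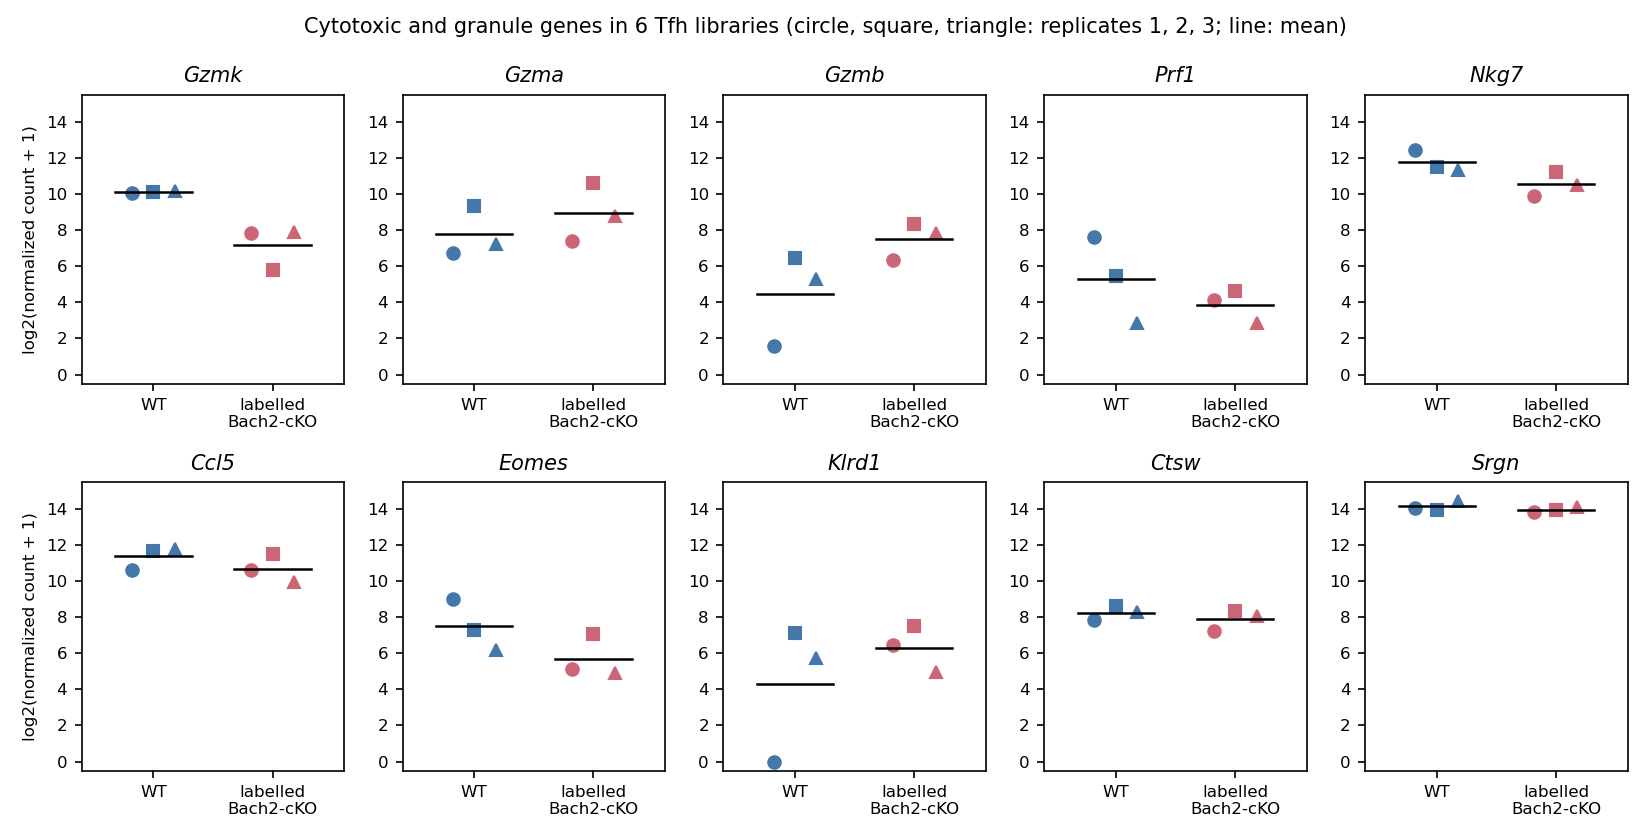
Each point is the log2(normalized count + 1) of 1 gene in 1 library, for 3 WT libraries and 3 libraries labelled Bach2-cKO, with circles, squares and triangles for replicates 1, 2 and 3 and a line at the group mean. *Gzmk* has 3 WT points that lie together above the others, while *Gzmb* and *Klrd1* have a lone low point in WT replicate 1.

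Levels of the 3 granzymes were compared per kb of the longest annotated transcript. In WT, *Gzmk* was the most abundant of them in each library, with 823, 853 and 889 normalized counts per kb. It made up 88.3%, 54.2% and 83.2% of the 3 granzymes together on this scale in WT replicates 1, 2 and 3. With the Bach2-cKO label this share was 44.2%, 2.21% and 23.4%, so that every such library lay below every WT library. *Gzma* took 42.0%, 85.7% and 56.1% there, and *Gzmb* 13.8%, 12.1% and 20.5%, against at most 3.92% for *Gzmb* in WT. In replicate 2 labelled Bach2-cKO, the level of *Gzma* was 38.8 times that of *Gzmk* per kb, and in WT replicate 1 *Gzmk* was 7.66 times *Gzma*. The summed level of the 3 genes overlapped between groups, at 932, 1574 and 1068 in WT and at 403, 1862 and 787 normalized counts per kb in the others.

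**Figure D2:**
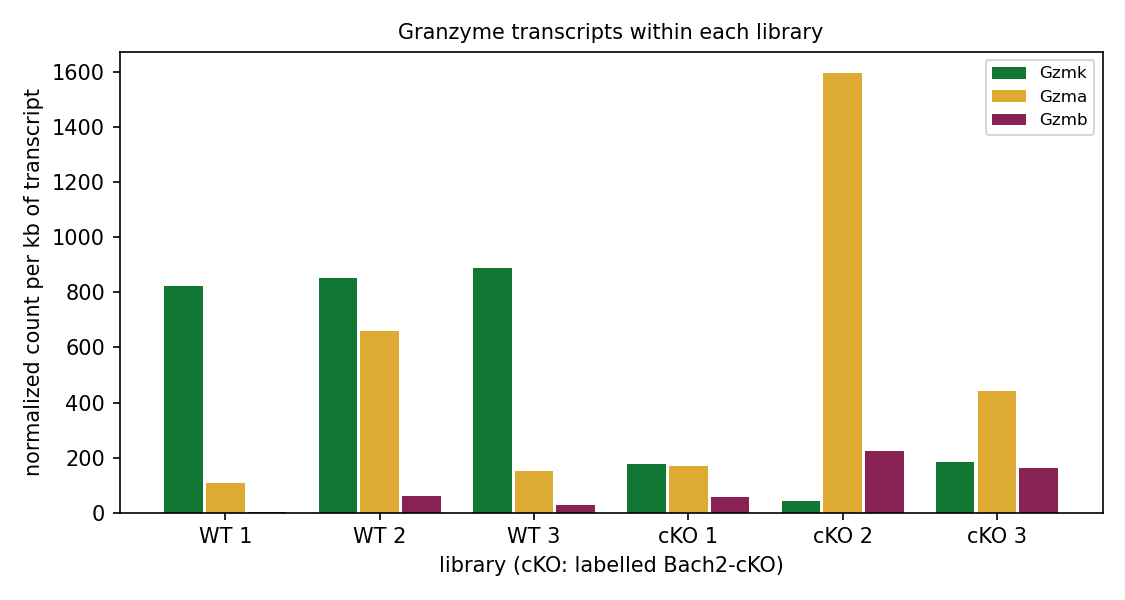
Bars give the normalized count per kb of transcript of *Gzmk*, *Gzma* and *Gzmb* in each of the 6 libraries (cKO, labelled Bach2-cKO). *Gzmk* is the tallest bar in the 3 WT libraries, at 823 to 889, and *Gzma* in replicates 2 and 3 labelled Bach2-cKO, at 1596 and 442.

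*Gzmk* and *Gzma* are neighbours in the genome although their values did not move together. In GENCODE M21 on GRCm38, *Gzma* lies on the minus strand at chr13:113093825-113100981 and *Gzmk* on the same strand at chr13:113171608-113225908. They are 70626 bases apart, with 3 annotated genes between them. *Gzmb* lies on another chromosome, on the minus strand at chr14:56258838-56262260. The annotated span of *Gzmk* overlaps *Esm1*, which is on the opposite strand, and the cDNA kit does not mark strand, so reads on the overlap cannot be told apart. *Esm1* itself was at 24.2, 97.6 and 65.5 normalized counts in WT and at 35.5, 0 and 11.3 with the Bach2-cKO label.

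The promoters of the 3 granzymes are shown because these genes differed in which libraries were high. They come from RefSeq on GRCm38.p6 and run from 250 bases before the start to 50 bases from it on, 5′ to 3′ on the minus strand, at chr13:113180916-113181215, chr13:113100932-113101231 and chr14:56262285-56262584. Capitals mark matches, on either strand, to the AP-1 or Bach core TGANTCA, the Runx motif TGTGGTT or the T-box motif GGTGTGA.
Gzmk: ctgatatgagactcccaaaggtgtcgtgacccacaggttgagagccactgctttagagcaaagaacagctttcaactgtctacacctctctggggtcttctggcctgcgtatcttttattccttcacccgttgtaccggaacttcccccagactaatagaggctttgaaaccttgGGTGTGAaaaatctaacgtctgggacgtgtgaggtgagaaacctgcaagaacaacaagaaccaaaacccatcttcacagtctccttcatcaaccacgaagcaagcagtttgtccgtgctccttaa
Gzma: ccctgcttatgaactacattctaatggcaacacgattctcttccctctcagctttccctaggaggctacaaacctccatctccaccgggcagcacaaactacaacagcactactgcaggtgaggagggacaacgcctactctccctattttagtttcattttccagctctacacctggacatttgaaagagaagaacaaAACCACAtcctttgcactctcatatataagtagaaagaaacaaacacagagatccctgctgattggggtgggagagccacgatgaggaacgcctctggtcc
Gzmb: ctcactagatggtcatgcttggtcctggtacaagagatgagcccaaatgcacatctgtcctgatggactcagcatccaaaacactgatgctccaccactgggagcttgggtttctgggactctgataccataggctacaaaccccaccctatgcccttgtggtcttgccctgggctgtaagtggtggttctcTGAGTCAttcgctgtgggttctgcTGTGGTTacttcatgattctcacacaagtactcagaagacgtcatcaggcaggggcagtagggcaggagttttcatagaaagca
In the *Gzmk* promoter the capitals are a T-box match that begins at position -75 from the start. In that of *Gzma* they are a Runx match on the reverse strand at -51, and in that of *Gzmb* an AP-1 or Bach core match at -58, with G as its free base, and a Runx match at -34. Promoters were found for 7 of the 10 genes, with 8 promoters in all since *Srgn* has a pair. Of these 8, 1 held the AP-1 or Bach core, 3 the Runx motif and 2 the T-box motif, the second T-box match being in *Nkg7*. Over all 32851 promoters of this length, 7.81%, 5.27% and 3.98% held these motifs in the same order. A match is a description of letters and not of binding.

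*Prf1* encodes perforin, the protein that forms pores in the target membrane. The WT libraries had 199.8, 42.6 and 6.24 normalized counts and the libraries labelled Bach2-cKO 16.3, 23.5 and 6.14. WT replicate 1 was the highest and the groups overlapped. In WT replicate 3 and in replicate 3 labelled Bach2-cKO these values stand for 6 recovered reads each, so counting error is large there. The log2 difference was -1.47 (standard error 1.14), and ran from -2.70 without WT replicate 3 to -0.30 without WT replicate 1.

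*Nkg7* encodes a membrane protein of cytotoxic granules that is needed for their release. It was at 5536, 2907 and 2633 normalized counts in WT and at 962, 2417 and 1432 with the Bach2-cKO label. Each WT library was above each of the others, though WT replicate 3 and replicate 2 labelled Bach2-cKO lay close together. The means were 3692 ± 1603 (SD, n = 3) and 1604 ± 742 (SD, n = 3), and the log2 difference was -1.22 (standard error 0.36), or -0.89 without WT replicate 1 and -0.42 with library weights.

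*Srgn* encodes serglycin and was the most abundant of the 10 genes. Its normalized counts were 17022, 15833 and 22455 in WT and 14629, 15859 and 17703 in the other group. The groups overlapped, the whole spread was 1.54-fold, and the log2 difference was -0.19 (standard error 0.21). It turned to 0.41 when a smooth trend in transcript length and GC content was taken off each library.

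*Ctsw* encodes cathepsin W, a cysteine protease of the papain family found in CD8+ T cells and NK cells. Normalized counts of 232, 394 and 309.9 in WT stood beside 149, 326 and 264 with the Bach2-cKO label, and the groups overlapped. The log2 difference of -0.38 (standard error 0.35) was about as large as its error. It ran from -0.62 without replicate 2 labelled Bach2-cKO to -0.056 without replicate 1 of that label. The annotated span of *Ctsw* overlaps that of *Fibp* on the opposite strand, and *Fibp* was at 285 to 606 normalized counts. Only spans were compared, and how reads on the overlap affected either count was not tested.

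*Ccl5* encodes a chemokine that draws T cells and monocytes and is stored and released by memory T cells. The 3 WT libraries held 1586, 3315 and 3525 normalized counts, and those labelled Bach2-cKO 1579.9, 2893 and 1002. WT replicate 1 and replicate 1 labelled Bach2-cKO were nearly equal, and the groups overlapped with means of 2808 ± 1064 (SD, n = 3) and 1825 ± 969 (SD, n = 3). The log2 difference was -0.67 (standard error 0.40). With WT replicate 1 left out it was -1.04, and the WT libraries that remained were both above the other group. The difference was -1.07 without replicate 2 labelled Bach2-cKO and -0.31 without replicate 3 of that label.

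*Eomes* encodes eomesodermin, a T-box transcription factor of NK cells and memory CD8+ T cells. In WT it was at 507, 155 and 72.8 normalized counts, against 34.0, 131 and 28.6 with the Bach2-cKO label. WT replicate 1 was the highest, and replicate 2 labelled Bach2-cKO lay above WT replicate 3. The log2 difference was -1.80 (standard error 0.76), and -1.06 without WT replicate 1. It was -2.45 without WT replicate 3 and -2.48 without replicate 2 labelled Bach2-cKO.

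*Klrd1* encodes CD94, which pairs with NKG2 chains to form receptors for nonclassical MHC class I molecules. It was listed at 0 in WT replicate 1, at 141 and 52.0 normalized counts in WT replicates 2 and 3, and at 85.7, 182 and 29.7 with the Bach2-cKO label. Apart from the 0, the groups covered much the same range. The log2 difference of 2.0 (standard error 1.54) rests on that library and on the pseudocount of 1, and it ran from -0.14 without WT replicate 1 to 3.43 without WT replicate 2. *Klrc1*, the gene of its partner NKG2A, and *Klrk1*, the gene of NKG2D, were likewise at 0 in WT replicate 1. *Klrc1* was at 30.3 and 33.3 in WT replicates 2 and 3 and at 50.3, 168 and 25.6 with the Bach2-cKO label, and *Klrk1* at 131 and 49.9 and at 51.7, 278 and 34.8 normalized counts.

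Per kb of transcript, the WT means ran in the order *Srgn* (10676 normalized counts per kb), *Ccl5* (5279), *Nkg7* (4191), *Gzmk* (855), *Gzma* (306), *Ctsw* (251), *Klrd1* (70.1), *Eomes* (68.8), *Prf1* (33.5) and *Gzmb* (29.97). *Ccl5* and *Nkg7* did not differ beyond their SDs of 2000.3 and 1819, nor did *Gzma* and *Ctsw*, nor the 4 lowest genes among themselves. With the Bach2-cKO label, *Gzmk* stood at 134 ± 80.9 (SD, n = 3) normalized counts per kb, beside *Gzmb* at 147 ± 85.7 (SD, n = 3) and *Ctsw* at 198 ± 72.1 (SD, n = 3). For scale, *Cxcr5* was at 597 ± 108 (SD, n = 3) per kb in WT, so that *Gzmk* was there above a gene of the sort gate, and below it with the Bach2-cKO label, where *Cxcr5* was at 645 ± 175 (SD, n = 3).

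Of the 10 genes, 2 (*Gzmk* and *Nkg7*) were lower in every library labelled Bach2-cKO than in every WT library, 0 were higher in every one, and 8 overlapped. Over all genes tested, 12.2% were lower and 14.6% higher in this sense. Leaving out a library can only add genes to these counts. Without WT replicate 1, *Ccl5* was added to the lower genes, where 18.1% of all genes were lower. Without WT replicate 3, *Prf1* and *Eomes* were added to them, and without replicate 2 labelled Bach2-cKO *Ccl5* and *Eomes*, where 15.1% and 14.5% of all genes were lower. Without WT replicate 2, *Gzma* and *Gzmb* were higher in every library labelled Bach2-cKO, and without replicate 1 of that label *Gzmb* was, where 21.6% and 17.0% of all genes were higher. Of the log2 differences 7 were below 0 and 3 above, with a median of -0.53 beside 0.08 over all genes. The signs of *Prf1* and *Eomes* turned with library weights (0.60 and 0.03) and that of *Srgn* with the length and GC trend removed. Because the genes were chosen on this contrast, nothing is read from these counts.

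**Figure D3:**
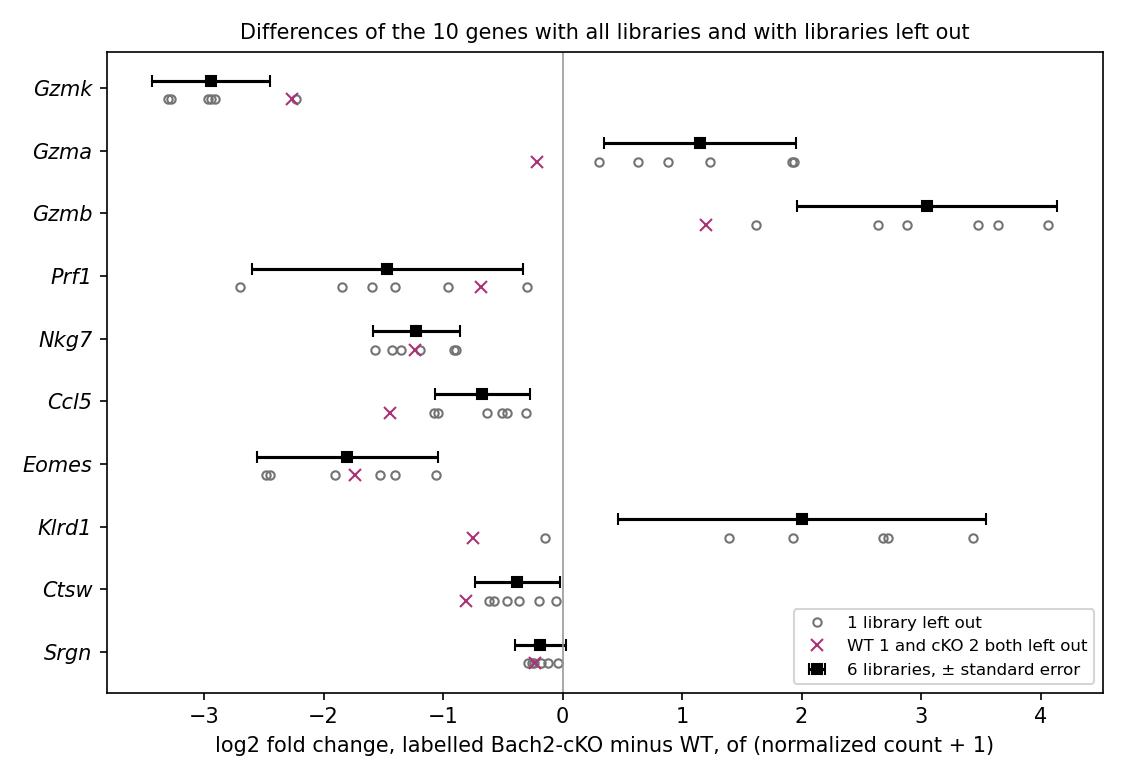
Squares give the log2 fold change of (normalized count + 1) for the 10 genes, libraries labelled Bach2-cKO minus WT, with bars of 1 standard error on each side; circles give it with 1 library left out and crosses with WT replicate 1 and replicate 2 labelled Bach2-cKO both left out. *Gzmk* stays between -3.31 and -2.23 with single libraries left out, while *Klrd1* and *Gzma* have values on both sides of 0.

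Over all 11296 genes limma called 0 genes higher and 0 lower at an adjusted p under 0.01 and more than 2-fold, which is 0.0% of genes tested, and the smallest adjusted p was 0.141. By unadjusted p under 0.05 it had 2301 genes, 10.2% of those tested being lower and 10.1% higher. On the recovered reads of 5 libraries, without WT replicate 1, edgeR called 0 genes and had 2070 by unadjusted p under 0.05, or 18.3%. DESeq2 on these libraries called 57 genes lower and 33 higher, or 0.505% and 0.292% of genes tested.

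The extremes of the 10 genes were spread over all 6 libraries. Replicate 2 labelled Bach2-cKO was the highest of the 6 libraries for *Gzma*, *Gzmb* and *Klrd1* and the lowest for *Gzmk*. WT replicate 1 was the highest for *Prf1*, *Nkg7* and *Eomes* and the lowest for *Gzma*, *Gzmb* and *Klrd1*. Replicate 3 labelled Bach2-cKO was the lowest for *Prf1*, *Ccl5* and *Eomes*, and replicate 1 of that label for *Nkg7*, *Ctsw* and *Srgn*. WT replicate 3 was the highest for *Gzmk*, *Ccl5* and *Srgn*, and WT replicate 2 for *Ctsw*. The 10 genes thus did not follow a common pattern, and their Pearson r to the mean of their own standardised log2 values over the 6 libraries ran from -0.000481 for *Gzmb* to 0.919 for *Ctsw*. That mean was highest in WT replicate 2 and lowest in replicate 1 labelled Bach2-cKO. The other genes most like it over the 6 libraries were *Zfp873* (r = 0.994), *Mutyh* (0.983), *Zfp943* (0.978), *Mt3* (0.976) and *Fth1* (0.968), picked by rank among all genes tested and given as a description.

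**Figure D4:**
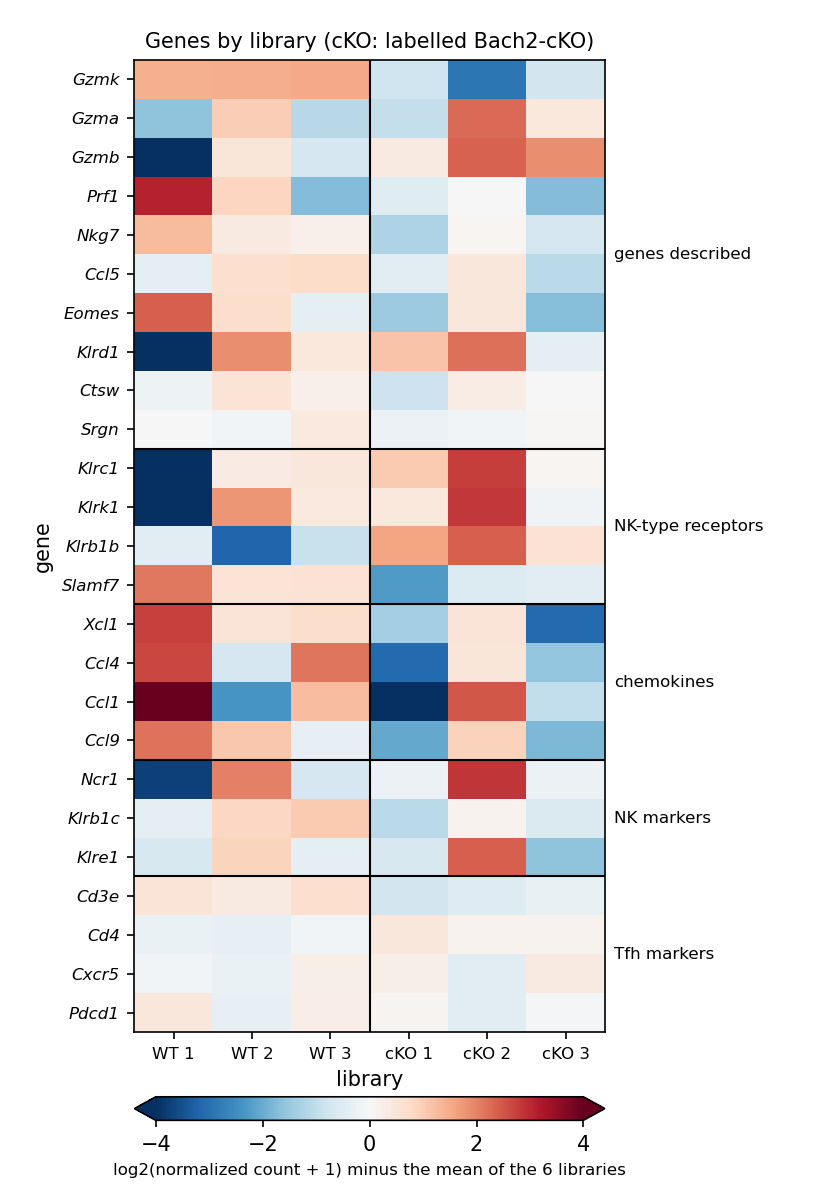
Colors give log2(normalized count + 1) minus the mean of the 6 libraries for each gene, in rows grouped by list and in columns by library (cKO, labelled Bach2-cKO); values past 4 in either direction have the end color. WT replicate 1 is low for *Gzmb*, *Klrd1*, *Klrc1*, *Klrk1* and *Ncr1* and high for *Prf1*, *Xcl1*, *Ccl4* and *Ccl1*, and replicate 2 labelled Bach2-cKO is high for *Gzma*, *Klrc1*, *Klrk1* and *Ncr1*.

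Other genes of the granule pathway were taken from 7 lists, of which 69 of 78 symbols were tested. In limma 0 of the 69 passed the thresholds in either direction, with 6 higher and 12 lower by unadjusted p under 0.05, beside 10.1% higher and 10.2% lower over all genes tested. In edgeR 0 passed, with 16 by unadjusted p under 0.05, beside 18.3% of all genes. DESeq2 called 1, *Klrb1b*, higher, beside 0.292% of all genes higher, but this gene met the filter only with the libraries labelled Bach2-cKO. Their median log2 difference was -0.10, beside 0.08 over all genes. The genes named from each list are those with the largest differences.

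Among the other granzymes 1 of 7, *Gzmm*, was tested, and it was listed at 0, 7.85 and 9.36 normalized counts in WT and at 20.7, 27.5 and 19.4 with the Bach2-cKO label. Every library labelled Bach2-cKO was above every WT library, at levels near the filter (log2 difference 2.37, limma adjusted p = 0.274). The difference was 1.28 without WT replicate 1 and 2.97 without WT replicate 3. All WT values of *Gzmm* were below the smallest value of the filter, so it was tested only through the libraries labelled Bach2-cKO. Its separation of the groups, difference and p-value therefore depend on the filter, and nothing is read from them. Granule biogenesis and exocytosis had 21 of 22 genes tested, with 3 higher and 4 lower by unadjusted p and a median of 0.00. *Sytl1* (log2 difference 2.42) and *Sytl2* (1.07), which encode synaptotagmin-like proteins that tether Rab27 vesicles, were higher in every library labelled Bach2-cKO. Without WT replicate 1, where *Sytl1* was at 1.01 normalized counts, these differences were 1.41 and 0.65, and that of *Sytl1* was 3.19 without WT replicate 3. *Lamp1* (-0.93, or -0.79 without WT replicate 1), the gene of the lysosomal membrane protein CD107a, and *Ctsh* (-1.07), a cathepsin, were lower in every one. The limma adjusted p values of these 4 genes were 0.222, 0.218, 0.141 and 0.222.

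The inhibitors of granzymes and cathepsins had 8 of 9 genes tested, 0 higher and 3 lower by unadjusted p, and a median of -0.38. *Cst7*, which encodes cystatin F, an inhibitor of granule cathepsins, was at 1420.1, 1594 and 2219 normalized counts in WT and at 776, 1099 and 1077 with the Bach2-cKO label, so that the groups did not overlap (log2 difference -0.82, limma adjusted p = 0.147). *Serpina3g* (-0.75) and *Serpinb6b* (-0.55), which encode serpins, were also lower in every library labelled Bach2-cKO. With the length and GC trend removed, the differences of these 3 genes were -0.41, -0.36 and -0.05, and that of *Serpina3g* was -0.67 without WT replicate 1. *Serpinb1a* was listed at 0 in WT replicate 1 and at 27.5 to 175 normalized counts in the other libraries.

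Of 4 death ligands tested, 0 were higher and 1 was lower by unadjusted p. *Tnf*, which encodes a cytokine that can kill through its receptors, was at 499.6, 284 and 252 normalized counts in WT and at 154, 167 and 204 with the Bach2-cKO label (log2 difference -0.92, limma adjusted p = 0.178). *Lta*, the gene of lymphotoxin alpha, had a difference of -0.78, with groups that overlapped. Without WT replicate 1 the differences of *Tnf* and *Lta* were -0.62 and -0.60. *Fasl*, the gene of Fas ligand, was at 1.01 in WT replicate 1 and at 31.0 to 168 elsewhere.

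All 18 NK-type receptors and adaptors were tested, with 2 higher and 2 lower by unadjusted p. *Klrb1b* encodes an inhibitory lectin-like receptor of NK cells and was at 13.1, 1.12 and 9.36 normalized counts in WT and at 56.2, 101 and 27.6 with the Bach2-cKO label, with no overlap (log2 difference 3.02, limma adjusted p = 0.157). Without WT replicate 2, where it stood at 1 read, its difference was 2.19. Of its WT values only that of replicate 1 reached the smallest value of the filter, so it was tested through the libraries labelled Bach2-cKO. Its separation of the groups, difference, p-value and DESeq2 call therefore depend on the filter, and nothing is read from them. *Slamf7*, a receptor gene of the SLAM family, was at 1013, 341 and 350.4 in WT and at 47.3, 160.1 and 168 with the Bach2-cKO label, again with no overlap (log2 difference -2.18, limma adjusted p = 0.141, and -1.66 without WT replicate 1 and -1.59 without replicate 1 labelled Bach2-cKO). The list held log2 differences in both directions, 8 below 0 and 10 above, and its median was 0.17.

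All 5 chemokines of cytotoxic cells had log2 differences below 0, with a median of -2.25, and 2 were lower by unadjusted p. *Xcl1*, the gene of lymphotactin, was at 3485, 748 and 836 normalized counts in WT and at 199.5, 743 and 59.3 with the Bach2-cKO label. The groups did not overlap, by a narrow margin between WT replicate 2 and replicate 2 labelled Bach2-cKO (log2 difference -2.64, limma adjusted p = 0.155). *Ccl4* was at 1189, 116 and 821 in WT and at 20.7, 261 and 62.4 with the Bach2-cKO label, with overlap (log2 difference -2.77, limma adjusted p = 0.173). The differences of *Xcl1* and *Ccl4* were -1.93 and -2.12 without WT replicate 1, and -0.69 and -1.44 with library weights. With other single libraries left out, that of *Xcl1* ran from -3.56 to -1.75 and that of *Ccl4* from -3.80 to -1.91. WT replicate 1 was the highest library for both, and for *Ccl1*, at 1660.3 normalized counts against 1.48 to 415 elsewhere, and *Ccl9*, at 126 against 5.91 to 59.5. The differences of *Ccl1* and *Ccl9* were -2.25 and -1.95, and without WT replicate 1 they were -0.57 and -1.36. Over all single libraries left out, that of *Ccl1* ran from -4.06 to -0.36 and that of *Ccl9* from -2.90 to -1.36. That of *Ccl1* was above 0 in DESeq2 and edgeR, and both were above 0 with library weights.

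Among transcription factors of cytotoxic lymphocytes 12 of 13 were tested, with 1 higher and 0 lower by unadjusted p and a median of 0.22. *Zbtb7b*, which encodes ThPOK, the factor that sets the CD4 lineage and represses cytotoxic genes, was at 125, 139 and 148 normalized counts in WT and at 231, 295 and 209 with the Bach2-cKO label (log2 difference 0.82, limma adjusted p = 0.186). This difference was 0.75 without WT replicate 1, and 0.12 once the trend in length and GC content was removed. *Zeb2* (1.15) and *Runx1* (0.52) were also higher in every library labelled Bach2-cKO, and *Hopx* (-0.71) overlapped. Without WT replicate 1 these differences were 0.66, 0.34 and -0.50, and that of *Hopx* was -0.01 with library weights. *Tbx21*, a T-box relative of *Eomes* that was added here after its values were seen, was at 17.7 to 65.1 normalized counts with overlap.

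**Figure D5:**
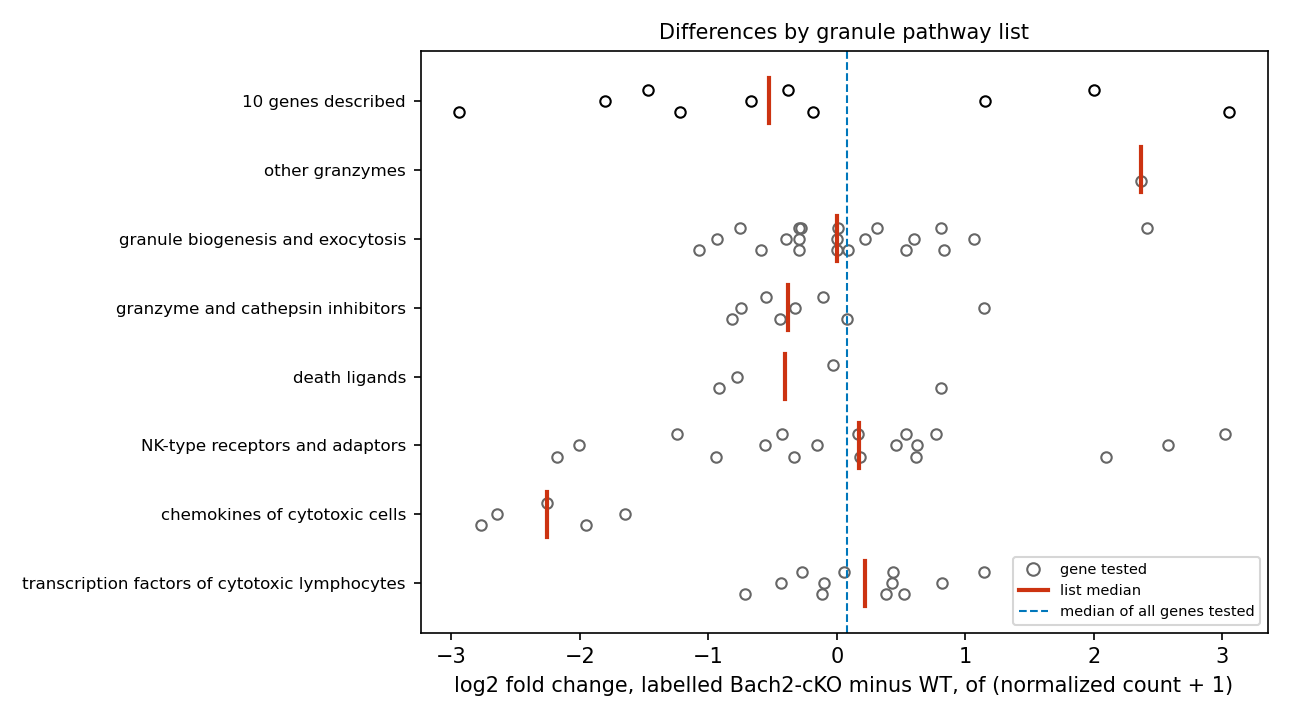
Each circle is the log2 fold change of (normalized count + 1) of 1 gene tested, libraries labelled Bach2-cKO minus WT, by list, with the list median in red and the median of all genes tested as a dashed line at 0.08. The chemokine list has its 5 genes below 0, and the NK-type receptor list spreads from -2.18 to 3.02.

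Since the 10 genes are also expressed by other cells of the lymph node, markers of such cells were measured in the same libraries. Of 6 NK cell markers 6 were listed and 3 tested. They summed to 157, 405 and 334 normalized counts in WT and to 102, 452 and 119 with the Bach2-cKO label, with *Klrb1c* the most abundant and *Klra4* at 0 in every library. *Ncr1*, which encodes the NK receptor NKp46, was at 0, 52.7 and 7.28 in WT and at 10.3, 96.5 and 10.2 with the Bach2-cKO label, highest in replicate 2 of each group, as *Gzma* and *Klrd1* were. *Klrb1c*, the gene of NK1.1, was at 115, 265 and 304 in WT and at 69.5, 163 and 98.2 with the Bach2-cKO label, highest in WT replicate 3 and with a lower mean in the libraries labelled Bach2-cKO, unlike *Ncr1*. The CD8 T cell markers *Cd8a* and *Cd8b1* summed to 176, 786 and 552 in WT and to 361, 332 and 413 with the Bach2-cKO label, and *Cd8b1* was the more abundant. The sort gate took CD4+ cells, and the part of NK or CD8+ T cells in the values of the 10 genes was not tested.

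NKT cell markers (2 of 2 listed, mostly *Cxcr6*) summed to 1021, 1508 and 1049 in WT and to 704, 735 and 1158 with the Bach2-cKO label, with groups that overlapped for *Cxcr6*. *Zbtb16*, their defining marker, did not pass the filter and was at 0, 2.24 and 0 in WT and at 7.39, 17.4 and 3.07 with the Bach2-cKO label, higher in every one. Gamma delta T cell markers (4 of 8 symbols listed, some being older names of the same genes, with *Tcrg-c1* the most abundant) summed to 356, 694 and 171 in WT and to 284, 276 and 370.2 in the others. *Trdc*, their defining marker, was at 47.8 to 90.9 normalized counts. Regulatory T cell and Tfr markers (4 of 4 listed, *Ikzf2* the most abundant) summed to 5030.5, 5799 and 7052 in WT and to 6308, 5043 and 4267 with the Bach2-cKO label. *Foxp3*, the factor that defines these cells, was at 222, 315 and 344 in WT and at 47.3, 140.0 and 91.0 with the Bach2-cKO label (log2 difference -1.76, limma adjusted p = 0.141). It was lower in every library of that label, as were 12.2% of all genes tested, *Gzmk* among them.

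B cell markers (3 of 3 listed, *Cd22* the most abundant over the 6 libraries) summed to 90.8, 343 and 288 in WT and to 263, 166 and 133 with the Bach2-cKO label, and the gate was B220-. *Ms4a1* was at 33.7 to 45.8 in WT and at 2.68 to 10.2 with the Bach2-cKO label. In that group only replicate 3 reached the smallest value of the filter, so *Ms4a1* was tested through the WT libraries. Its difference and p-value therefore depend on the filter, and nothing is read from them. *Cd79a*, more abundant than *Cd22* in WT replicates 2 and 3, was at 19.2, 208 and 140.4 in WT and at 22.2, 14.7 and 45.0 with the Bach2-cKO label. The log2 differences of *Ms4a1* and *Cd79a* were -2.83 and -1.72, the latter being -2.75 without WT replicate 1 and -1.06 without WT replicate 2. That of *Cd22* was above 0, at 0.94, and 0.46 without WT replicate 1. Plasma cell markers (2 of 3 symbols listed), nearly all *Jchain*, summed to 316, 28817 and 6976 in WT and to 2087, 480.4 and 485 with the Bach2-cKO label. *Sdc1*, their defining marker, was at 0 in WT replicate 1 and at most at 13.5 normalized counts elsewhere. Myeloid markers (4 of 4 listed, *Lyz2* the most abundant) summed to 2209, 7855 and 3915 in WT and to 1794, 5137 and 1732 in the others, and like *Gzma* were highest in replicate 2 of each group. The difference of *Lyz2* was -0.79, and ran from -1.33 without replicate 2 labelled Bach2-cKO to -0.28 without WT replicate 2. *Csf1r*, the gene of a receptor of macrophages, was at 14.1, 212 and 152 in WT and at 214, 371 and 177 with the Bach2-cKO label. The log2 difference of *Csf1r* was 1.62, and ran from 0.43 without WT replicate 1 to 2.33 without WT replicate 2. *Cd68*, a lysosomal membrane protein gene of macrophages, was at 347, 420 and 318 in WT and at 133, 339 and 138 with the Bach2-cKO label, with overlap (log2 difference -0.96, limma adjusted p = 0.204). Mast cell and basophil markers (2 of 4 listed, *Cpa3* the most abundant) summed to 28.3, 42.6 and 16.6 in WT and to 31.0, 34.8 and 28.6 with the Bach2-cKO label, with *Fcer1a* at 0 in every library. Of the 22 genes tested in all these lists, limma called 0. By unadjusted p under 0.05, 3 were lower (*Foxp3*, *Ms4a1* and *Cd68*) and 0 higher, beside 10.2% lower and 10.1% higher over all genes tested. In edgeR 0 were called, with 8 by unadjusted p, beside 18.3% of all genes, and DESeq2 called 2 lower, *Foxp3* and *Cd79a*, beside 0.505% of all genes lower. The part of these cells in the values of the 10 genes was not tested.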

How the data were processed

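The authors deposited a table of normalized read counts, a signal per gene: reads counted per gene and divided by a size factor of each library. The paper's methods name Tophat2, HTSeq and DESeq2, while the submitters' processing notes name STAR 2.5.2b, DESeq2 1.20.0, R 3.5.1 and GRCm38, and this difference was not resolved. From the deposited values, log2(normalized count + 1) was fitted in limma 3.58.1 (R 4.3.3) using a trended variance, no covariate and Benjamini-Hochberg adjustment, over 11296 genes with at least 10 in at least 3 libraries; the thresholds are the study's. The pseudocount makes fold changes of low genes too small on this scale, but a value near 0 in 1 library can make the difference of mean log2 values larger than the log2 ratio of the group means, as for *Klrd1* and *Gzmb*. Reads recovered from 5 libraries (100% of values whole) were tested with edgeR 4.0.16 and DESeq2 1.42.0. Transcript length came from GENCODE M21, where 14329 genes matched by symbol and 367 by an older symbol. The procedures were tested on simulated data, and the outcome is not reported here.

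The genes and lists were chosen with earlier results of these data known. Genes named are the 10, *Bach2*, each list's defining markers and up to 4 genes of largest difference, and the 5 genes most like the 10; any others were added after their values were seen. A marker of the lists is not reported here. Alternatives were other pseudocounts, filters, scalings, weights, variance models and tools, a replicate block and left-out libraries; leaving out WT replicate 1 and replicate 2 labelled Bach2-cKO together was added after seeing the data.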

Additional observations from a re-analysis of the deposited data

How the results depend on the processing

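The counts of genes past the thresholds were 0 higher and 0 lower under every alternative of limma other than library weights, which gave 561 higher and 567 lower, and under edgeR; DESeq2 on 5 libraries gave 33 and 57. Of the other granule pathway genes, library weights called 1 higher and 3 lower and DESeq2 1 higher; of the other cell type genes, library weights called 4 lower and DESeq2 2 lower. The weights ran from 0.206 for WT replicate 1 to 5.54 for replicate 2 labelled Bach2-cKO, so that fit leans on the latter; the cause of the larger counts was not tested. With single libraries left out, each of these counts stayed at 0. With WT replicate 1 and replicate 2 labelled Bach2-cKO both left out, they were also 0.

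With a replicate block, 0 genes passed in either direction and the median of the 10 genes was -0.53. Samples with the same number did not deviate together in each pair (correlations -0.0689, 0.116 and -0.0386), so the numbers are not taken to pair samples.

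The median log2 difference of the 10 genes lay between -0.84 and -0.38 when single libraries were dropped and was -0.06 with library weights. Of 18 or 19 alternatives each, *Gzmk*, *Gzmb*, *Nkg7*, *Ccl5* and *Ctsw* kept their sign in all that were run, which *Gzmk* and *Nkg7* could not lose with libraries left out, since their groups did not overlap. *Gzma* changed it in 1, *Prf1* in 1, *Eomes* in 1, *Srgn* in 1 and *Klrd1* in 2. The difference of *Ccl1*, -2.25, was 0.99 with library weights, 0.72 in edgeR and 0.66 in DESeq2, and lay between -4.06 and -0.36 when single libraries were dropped in limma. That of *Ccl9*, -1.95, was 0.20 with those weights, and that of *Eef1a1*, -0.33, was 0.086 with the length and GC trend removed; the cause was not tested. *Prf1* had 6 to 38 reads in each of the 5 libraries with recovered reads. Each group held 3 libraries, and how far depth or group size limits each gene was not tested. The log2 difference also varied with transcript length (Spearman's rho 0.339 over 11268 genes, which are not independent replicates).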
